A study of Arabidopsis thaliana with 31 samples.

Results

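The DNA methylome of *dcl4* leaves differed between time point 0 and 24h after UV-C exposure, mainly by gains of CHH methylation in transposable elements (TEs). Its description rests on the differentially methylated regions (DMRs) that the authors called between 24h and time point 0 in *dcl4* plants, and every region of both lists was taken. They hold 6680 of the 24655 DMRs of the series, of which 6351 had a higher level at 24h (hyper-DMRs) and 329 a lower one (hypo-DMRs). A DMR is given with its coordinates, its sequence context and its methylation level, the percentage of methylated cytosine calls, at both time points. Of the hyper-DMRs, 6248 were listed in the CHH and 103 in the CHG context, where H stands for A, C or T. Of the hypo-DMRs, 328 were listed in the CHH context and 1 in the CHG context, and neither list held a CG DMR.

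The methylomes came from whole-genome bisulfite sequencing (WGBS) of Arabidopsis leaves of *dcl4-2*, *ddb2*, *ago1*, *uvr3 phrI* and WT plants, all in the Col 0 ecotype. The *dcl4-2* allele is a T-DNA insertion line (GABI_160G05). The labels give an age of 18 days in vitro, while the growth times in the methods add up to older plants, and the genotype was taken from them, since the DMR lists hold no measure of *DCL4* itself. Leaves were collected 24h after exposure to 3000 J/m2 of UV-C and at time point 0. The methods place time point 0 immediately after the exposure, although other parts of the study call it untreated. No methylome library came from plants kept for 24h without UV-C. An effect of UV-C therefore cannot be told apart from 24h of growth or from a difference between libraries. Each time point of each genotype was 1 library, made from leaves pooled from 2 biological replicates. No change between time points therefore has a replicate check, no test across samples was possible, and the depth behind each level is unknown because read numbers are not part of the lists. In the study's supplement the WT library of time point 0 has far lower read totals than both *dcl4* libraries and WT at 24h. Those of the *ddb2* library of time point 0 are also lower than those of *ddb2* at 24h and of both *dcl4* libraries. The part of this in the WT and *ddb2* values was not tested. The 95% intervals are exact (Clopper-Pearson for shares, conditional on the total for ratios of counts) and cover counting error only.

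In plants CHH methylation is kept up by the RNA-directed DNA methylation pathway, in which small interfering RNAs guide the methyltransferase DRM2, mostly at short TEs and TE edges, and by CMT2, mostly within long TEs of heterochromatin. DCL4 is a Dicer-like ribonuclease that cuts double-stranded RNA into short siRNAs, among them the trans-acting siRNAs from *TAS* transcripts. It is also one of the factors of the small RNA-mediated repair of UV photolesions, together with DDB2 and AGO1. Helitrons are DNA transposons that move by rolling-circle replication. Gypsy and Copia elements are LTR retrotransposons, which move through an RNA copy and carry a long terminal repeat at each end.

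The sequences of the regions with the largest changes of at most 300 bp show what kind of DNA these levels were read from. They were read from the TAIR10.1 reference, plus strand, over the listed TAIR10 coordinates. Capitals mark the cytosines of the context of the DMR, as C on the plus strand and as G where the cytosine lies on the minus strand. The first 3 lines are the largest CHH gains, in the MuDR-type elements ARNOLDY2 and ARNOLDY1 and in the helitron ATREP10B.
AT5TE34100 (ARNOLDY2), chr5:9396500-9396750: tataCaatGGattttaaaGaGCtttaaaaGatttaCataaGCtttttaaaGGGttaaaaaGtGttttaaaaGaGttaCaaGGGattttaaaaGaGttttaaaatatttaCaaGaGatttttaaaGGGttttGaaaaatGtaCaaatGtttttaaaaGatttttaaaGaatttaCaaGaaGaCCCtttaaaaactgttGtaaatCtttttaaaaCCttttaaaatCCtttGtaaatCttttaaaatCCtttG
AT4TE17760 (ARNOLDY1), chr4:4094300-4094500: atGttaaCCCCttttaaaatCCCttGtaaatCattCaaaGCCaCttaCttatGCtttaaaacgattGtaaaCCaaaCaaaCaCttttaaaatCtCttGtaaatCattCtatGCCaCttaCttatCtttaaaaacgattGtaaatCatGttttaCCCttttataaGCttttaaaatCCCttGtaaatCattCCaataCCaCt
AT5TE25600 (ATREP10B), chr5:7076250-7076450: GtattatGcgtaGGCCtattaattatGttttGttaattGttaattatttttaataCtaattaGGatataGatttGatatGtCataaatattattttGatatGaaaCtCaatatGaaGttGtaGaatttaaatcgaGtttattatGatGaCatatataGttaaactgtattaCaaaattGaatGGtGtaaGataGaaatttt
The next lines are the largest CHH losses, in the helitron ATREP10D and in the element RP1_AT.
AT5TE58780 (ATREP10D), chr5:16276050-16276250: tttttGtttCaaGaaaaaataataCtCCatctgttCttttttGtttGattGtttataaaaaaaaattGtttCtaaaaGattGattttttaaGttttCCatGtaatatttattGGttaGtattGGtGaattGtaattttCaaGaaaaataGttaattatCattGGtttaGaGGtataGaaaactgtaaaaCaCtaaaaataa
AT1TE23395 (RP1_AT), chr1:7241450-7241650: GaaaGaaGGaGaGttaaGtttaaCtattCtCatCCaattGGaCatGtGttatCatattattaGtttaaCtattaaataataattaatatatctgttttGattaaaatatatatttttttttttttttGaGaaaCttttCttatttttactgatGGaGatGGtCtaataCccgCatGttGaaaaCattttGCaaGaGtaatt
The last lines are the largest CHG gain of this size, 78 bp from the TE AT5TE32760 (BRODYAGA1A), and the CHH gain next to *MET1*, which encodes the CG maintenance methyltransferase.
CHG gain, chr5:9056700-9056950: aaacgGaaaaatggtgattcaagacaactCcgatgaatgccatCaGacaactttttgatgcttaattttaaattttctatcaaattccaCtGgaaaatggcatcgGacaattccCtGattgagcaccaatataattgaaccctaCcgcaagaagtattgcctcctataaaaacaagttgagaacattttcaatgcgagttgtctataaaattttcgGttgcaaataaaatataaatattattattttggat
*MET1* flank, chr5:19931450-19931650: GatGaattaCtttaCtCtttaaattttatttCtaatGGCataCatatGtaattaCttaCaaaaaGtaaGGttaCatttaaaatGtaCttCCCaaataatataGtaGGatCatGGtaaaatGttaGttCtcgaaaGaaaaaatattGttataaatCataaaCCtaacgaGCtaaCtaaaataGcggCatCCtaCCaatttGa

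All 5 printed CHH regions of the largest gains and losses were poor in GC, between 20.4% and 28.4%, and held 36 to 53 CHH cytosines each. They held between 0 and 2 CG dinucleotides. The cytosines were uneven between strands. In the ARNOLDY1 region 42 of 53 lay on the plus strand, while in the ATREP10B region 28 of 36 lay on the minus strand. Both ARNOLDY regions held several copies of the motif TTTTAAAA, which reads the same on both strands and occurred 7 times in the ARNOLDY2 and 3 times in the ARNOLDY1 region. Among *dcl4* hyper-DMRs of 1 window (200 bp), 102 of 2117 held this motif (4.82%), against 4.06% of all 200-bp windows of the genome. Among hypo-DMRs of 1 window it was held by 20 of 199 (10.05%). In ARNOLDY elements 14 of 28 hyper-DMRs of 1 window held it. The share over all windows of ARNOLDY elements was not computed, so this count cannot be set against the share of the genome. The motif was chosen after these sequences were seen, and a match only describes the letters.

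The largest gain, within the ARNOLDY2 element, was 64.0% CHH methylation at 24h, against 6.07% at time point 0. The ARNOLDY1 region had 54.9% at 24h and 4.56% at time point 0, and the ATREP10B region 55.5% at 24h and 6.05% at time point 0. These 3 regions thus had low CHH methylation at time point 0. Other large gains had higher levels at the start. In a helitron on chromosome 4 (AT4TE23520, HELITRONY3) the level was 69.5% at 24h and 21.3% at time point 0, and in an ATREP3 helitron (AT4TE81120) it was 63.6% at 24h and 18.5% at time point 0. Of the 10 largest gains, 8 lay in TEs, 1 in a gene and 1 in an intergenic region. Each of these 8 TEs was a helitron (HELITRONY3, ATREP3, ATREP10B or ATREP18) or an ARNOLDY element. The largest loss was in the ATREP10D region, with 12.5% at 24h and 56.5% at time point 0. In the RP1_AT region the level was 13.8% at 24h and 46.2% at time point 0. The only CHG loss lay in AT5TE71350 (SIMPLEGUY1), a Harbinger-type element, with 23.2% at 24h and 57.0% at time point 0.

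Over all CHH hyper-DMRs the median level was 28.7% at 24h (quartiles 23.4 and 38.3%) and 14.2% at time point 0 (quartiles 9.93 and 20.7%). The median gain was 13.5 points of percent methylation, and the list begins at the authors' minimum of 10 points, so the smallest listed gain was just over this value. Large gains were a minority. Gains of at least 20 points were listed in 1018 regions (16.3%) and gains of at least 40 points in 30. Most regions were already methylated at time point 0, since 332 (5.31%) were under 5% at that time and 2983 (47.7%) were between 10 and 20%. In CHH hypo-DMRs the median level was 5.10% at 24h and 19.4% at time point 0, with a median change of -13.5 points. Of these, 161 (49.1%) were under 5% at 24h and 10 were listed at 0.

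The hyper-DMRs had lengths of 1 window in 2117 cases (33.3%), of 250 to 350 bp in 3409 (53.7%), of 400 to 600 bp in 738 (11.6%) and of over 600 bp in 87 (1.37%). Longer hyper-DMRs had larger median gains and higher median levels at time point 0. These classes pool the CHH hyper-DMRs with the 103 in the CHG context, whose minimum change is 20 points. The authors joined neighbouring windows that changed alike, so length and gain are not independent measures. The median gain was 12.2 points in those of 1 window, 13.9 points at 250 to 350 bp, 15.3 points at 400 to 600 bp and 15.7 points over 600 bp. Hypo-DMRs were shorter, with 199 of 329 (60.5%) of 1 window and none over 600 bp. Their base composition also differed, with a GC content of 29.3% in CHH hypo-DMRs, against 34.2% in CHH hyper-DMRs and 33.9% over all TE bases. Hypo-DMRs held 24.2 CHH cytosines per 100 bp, against 26.6 in hyper-DMRs.

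Most CHG gains shared their region with a CHH gain. The paper states that it found no regions with changes in both contexts, unlike the deposited lists. Of the 103 CHG hyper-DMRs, 90 (87.4%, 95% CI 79.4 to 93.1%) had the same coordinates as 1 of the 6248 CHH hyper-DMRs. Over these regions the median CHG level was 61.8% at 24h and 37.8% at time point 0, and the median CHH level was 27.6% at 24h and 10.8% at time point 0. The largest CHG gain was in AT1TE94570 (SIMPLEHAT1), a hAT element, with 60.7% at 24h and 23.04% at time point 0. The printed CHG region had 62.4% at 24h and 28.3% at time point 0, read from 11 CHG cytosines. CHG hyper-DMRs were found in every TE family group except SADHU, with 14 in Gypsy elements and 10 in helitrons.

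TEs held the midpoint of 4386 hyper-DMRs (69.1%, 95% CI 67.9 to 70.2%) and make up 20.03% of the genome. Intergenic regions held 1658 (26.1%) and protein-coding genes 307 (4.83%). Of the intergenic hyper-DMRs, 601 (36.2%) lay at most 250 bp from a TE, and the median distance was 559.5 bp. The share of all intergenic bases this close to a TE was not computed, so these values do not show an enrichment near TEs. Of the 31189 annotated TEs, 3248 held a hyper-DMR, which is 10.4%, and 249 held a hypo-DMR, which is 0.798%. These shares are the background for the family groups and length classes. Per TE, 2488 held 1 hyper-DMR, 470 held 2 and 290 held 3 or more.

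The pericentromere (regions of low gene density, 18.6% of the genome) held 3226 hyper-DMRs (50.8%). Their density was 145 per Mb there and 32.2 per Mb in the chromosome arms. The levels were lower in the pericentromere. CHH hyper-DMRs had a median of 25.5% at 24h and 12.1% at time point 0 in the pericentromere, and of 34.5% at 24h and 18.5% at time point 0 in the arms. Fewer of the hypo-DMRs were pericentromeric, 130 of 329 (39.5%, 95% CI 34.2 to 45.0%).

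The family of each TE was taken from its alias in the authors' annotation and the families were put in groups. Gypsy elements held a hyper-DMR in 797 of 4091 copies (19.5%, 95% CI 18.3 to 20.7%) and helitrons in 817 of 13606 copies (6.0%, 95% CI 5.61 to 6.42%). Harbinger-type elements (19.3%) and SINEs (16.1%), which are short non-coding retrotransposons, also lay above the 10.4% of all TEs. The groups CACTA (12.6%), MuDR (12.5%), LINE (12.3%), Copia (12.0%) and hAT (11.2%) lay closer to it, while none of the 16 SADHU copies held a hyper-DMR, which allows a share of up to 20.6% (upper 95% limit). Copy length differs between these groups, so the density was set beside the share. Per Mb of TE the density of hyper-DMRs was 119 in helitrons, 175 in Gypsy, 192 in Copia, 254 in MuDR, 385 in Harbinger-type and 989 in SINE elements. Helitrons make up 32.8% of the TE bases and held 21.2% of the hyper-DMRs in TEs, and both their share and their density were the lowest of the groups other than SADHU.

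**Figure D1:**
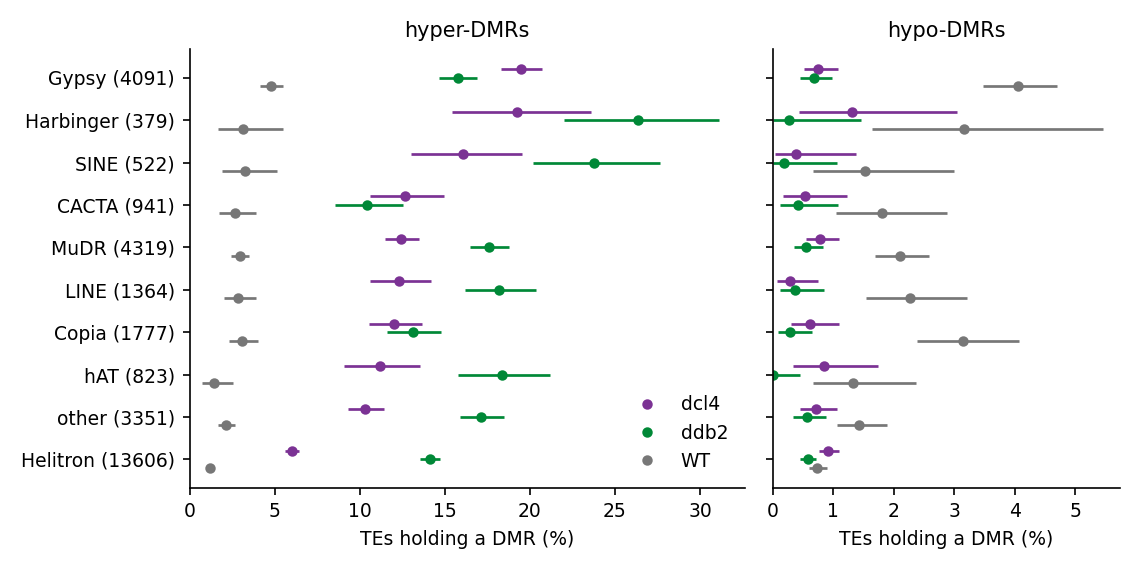
Percentage of annotated TEs of each family group (number of copies in brackets) that held the midpoint of a hyper-DMR (left) or of a hypo-DMR (right) in *dcl4*, *ddb2* and WT plants, with exact 95% intervals as bars. In *dcl4* plants Gypsy elements lie at 19.5% and helitrons at 6.0% for hyper-DMRs, while the hypo-DMR shares of all plotted groups lie between 0.293% and 1.32%.

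By the size of the gain, helitrons and Gypsy elements stood in the reverse order. Helitrons had the largest median gain of all groups, with 37.5% at 24h and 17.5% at time point 0 and a median gain of 17.8 points. Gypsy, CACTA and LINE elements had the smallest median gains, 11.7 points each. The levels of Gypsy elements were 25.3% at 24h and 12.7% at time point 0. Most Gypsy hyper-DMRs were pericentromeric (91.9%), as were 86.8% of all Gypsy copies, while 36.9% of the helitron hyper-DMRs and 29.3% of all helitron copies were, so both groups were also compared within each zone. The median gain was 16.3 points in helitrons and 11.6 points in Gypsy elements in the pericentromere, and 18.8 points in helitrons and 12.7 points in Gypsy elements in the arms. Among the DMRs in TEs that gained at least 20 points, helitrons held 357 (44.8%) and Gypsy elements 91 (11.4%). At this minimum 2.56% of the helitron copies and 2.03% of the Gypsy copies held a hyper-DMR. MuDR elements held 165 of these large gains (20.7%), close to their 21.02% of all hyper-DMRs in TEs.

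**Figure D2:**
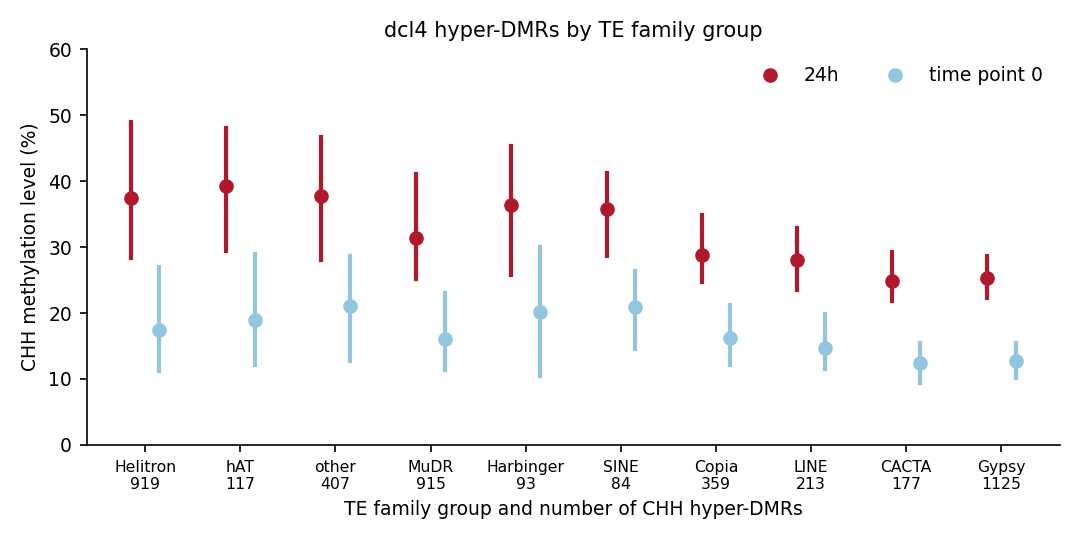
CHH methylation level (%) of *dcl4* hyper-DMRs at 24h and at time point 0 by TE family group, ordered by the median gain, with the number of DMRs under each name. Points are medians and bars run between quartiles over DMRs, and helitrons have medians of 37.5% at 24h and 17.5% at time point 0, against 25.3% and 12.7% at the same times in Gypsy elements.

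Hypo-DMRs were spread over the groups in another way. Helitrons held 120 of the 238 hypo-DMRs in TEs (50.4%, 95% CI 43.9 to 56.9%), above their 32.8% of TE bases, and Gypsy elements held 27 (11.3%). By copies, 0.919% of the helitrons (95% CI 0.765 to 1.09%) and 0.758% of the Gypsy elements held a hypo-DMR, and the interval of the helitrons includes the 0.798% of all TEs. The median level of helitron hypo-DMRs was 4.60% at 24h and 20.6% at time point 0. The 5 families with the most hypo-DMRs were large helitron families, HELITRONY3 with 18, ATREP10D with 13, ATREP3 with 12, ATREP11 with 10 and ATREP5 with 9. Their shares of copies with a hypo-DMR were between 0.764% in ATREP3 and 1.603% in ATREP5. The smaller families ATREP13 and TNAT1A, of which TNAT1A is in no named group, held 6 hypo-DMRs each, in 5.66% and 3.70% of their copies. A hyper-DMR lay within 1 kb of 124 of the 329 hypo-DMRs (37.7%, 95% CI 32.4 to 43.2%), while 28.5% of all TE bases and 9.91% of the genome lay within 1 kb of one. Of the 249 TEs with a hypo-DMR, 73 (29.3%) also held a hyper-DMR, against 10.4% of all TEs, but their median length was 1144 bp, against 309 bp over all TEs.

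Single families showed which elements made up these groups. Of 320 families, 272 held a hyper-DMR and 96 a hypo-DMR. The families with the most hyper-DMRs were ATHILA2 (217), HELITRONY3 (161), ATGP1 (148), ATREP3 (117), ATREP18 (101), ATHILA3 (100), ATHILA4A (96), ATHILA6A (96), ATHILA (74) and META1 (74). Of these, the ATHILA families and ATGP1 are Gypsy elements, META1 is a Copia element and the others are helitrons. In ATHILA2, 32.9% of 413 copies held a hyper-DMR and the median level was 26.4% at 24h and 14.3% at time point 0. In ATREP3, 7.30% of 1439 copies held one, at a median of 45.2% at 24h and 23.7% at time point 0, and 16.2% of its hyper-DMRs were pericentromeric. In ATREP18, 22.3% of the copies held one, and 98.0% of its hyper-DMRs were pericentromeric, against 36.9% of those in all helitrons.

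Among families of at least 20 copies, the highest shares were found in BOMZH1 (64.3% of 28 copies), VANDAL18NA (50%), VANDAL2 (48.8%), ATGP1 and VANDAL22 (45.8% each), ATCOPIA78 (41.7%), SIMPLEGUY1 (39.7%), ATREP12 (36.4%), ATTIRX1C (35.9%) and SIMPLEHAT1 (35.7%). The intervals are wide for such small families and reach 44.1 to 81.4% for BOMZH1. The VANDAL families are MuDR-type transposons, and ATCOPIA78 is the heat-responsive Copia element *ONSEN*. Apart from VANDAL2 and ATGP1, under 40% of the hyper-DMRs of each of these families were pericentromeric. The median level at 24h was between 27.6% in VANDAL2 and 50.8% in ATTIRX1C.

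Longer TEs held a hyper-DMR more often. The share was 2.43% of the TEs under 250 bp, 6.68% between 250 and 500 bp, 9.64% between 500 bp and 1 kb, 22.4% at 1 to 2 kb, 33.7% at 2 to 4 kb and 62.7% at 4 kb or more. A longer TE offers more windows, and the density did not follow the length. It was 232, 186, 153, 204, 169 and 186 hyper-DMRs per Mb in the same order of length classes. The class under 250 bp depended on the rule that ties a DMR to a TE, since with any shared base in place of the midpoint 7.31% of these TEs held a hyper-DMR, at 706 per Mb. The density within the arms was 223 per Mb in TEs under 250 bp and 276 per Mb in those of 4 kb or more, while in the pericentromere it was 247 and 161 per Mb in these classes. The median gain was 14.7 points in TEs under 250 bp and 11.8 points in those of 4 kb or more. Within helitrons the share was 1.38% under 250 bp and 41.5% at 4 kb or more, and within Gypsy elements it was 2.01% and 65.1% in these classes. The shares at 2 to 4 kb were 33.9% in helitrons and 33.7% in Gypsy elements.

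**Figure D3:**
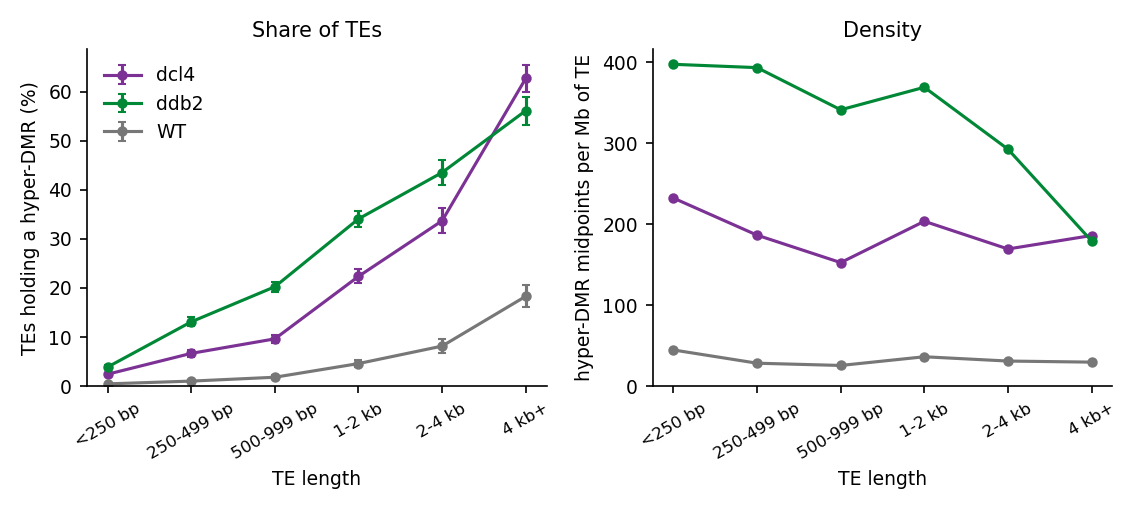
Percentage of TEs of each length class that held a hyper-DMR (left, bars are exact 95% intervals) and number of hyper-DMR midpoints per Mb of TE (right) in *dcl4*, *ddb2* and WT plants. In *dcl4* plants the share climbs to 62.7% in TEs of 4 kb or more, while the density stays between 153 and 232 per Mb.

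In TEs of at least 1 kb, the edge was taken as the outer 250 bp at each end. The edges held 272 hyper-DMRs per Mb and the bodies 169 per Mb, a ratio of 1.6 (95% CI 1.48 to 1.74). With this edge of 250 bp the ratio was larger in long TEs. In TEs of 4 kb or more it was 2.36 (95% CI 2.06 to 2.70), with 402 per Mb at the edges and 170 per Mb in the bodies. It was 1.39 in TEs of 1 to 2 kb and 1.34 in those of 2 to 4 kb. With the outer 10% of the length as the edge, the ratio was 1.52 (95% CI 1.41 to 1.65) in TEs of 1 kb or more. It was then 1.68 (95% CI 1.51 to 1.87) in those of 4 kb or more, and these intervals overlap. The density at the ends of these long TEs was 482 per Mb between 100 and 200 bp inside the end and 182 per Mb in the 100 bp just outside it. With the edge of 250 bp the ratio was 3.53 (95% CI 2.86 to 4.33) for long TEs of the arms and 1.77 (95% CI 1.46 to 2.13) for those of the pericentromere.

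**Figure D4:**
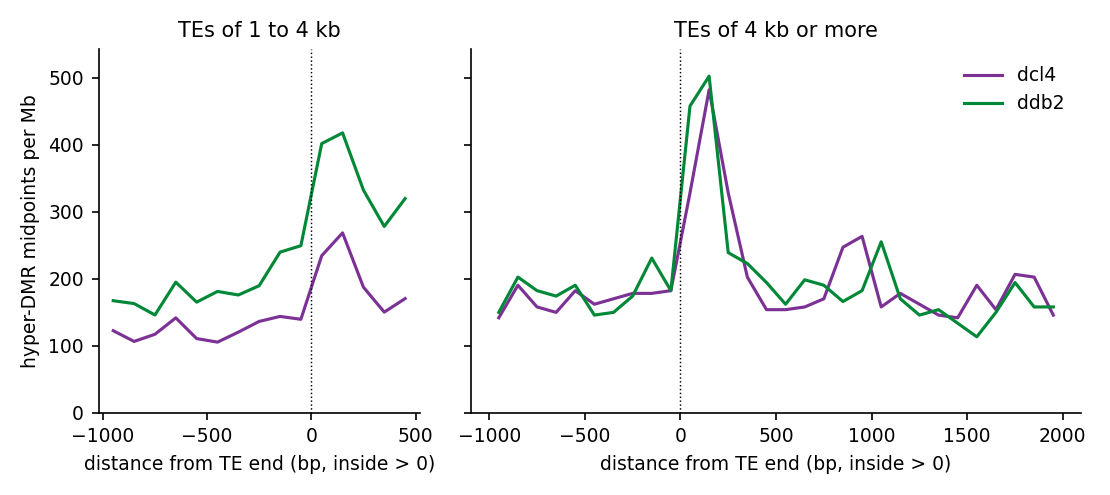
Density of hyper-DMR midpoints (per Mb) against the distance from the nearest TE end (bp, positive values inside the TE, dotted line at the end) in *dcl4* and *ddb2* plants, for TEs of 1 to 4 kb (left) and of 4 kb or more (right). In long TEs the density of *dcl4* hyper-DMRs reaches 482 per Mb at 100 to 200 bp inside the end, against 182 per Mb just outside.

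The edges stood out in some families and not in others. Among TEs of 4 kb or more the ratio of edge over body was 4.31 (95% CI 3.29 to 5.60) in Copia elements, 3.28 (95% CI 2.50 to 4.24) in MuDR elements and 1.70 (95% CI 1.31 to 2.18) in Gypsy elements. It was 0.781 in CACTA elements (95% CI 0.307 to 1.66) and 0.476 in helitrons (95% CI 0.0564 to 1.79), where the edges held 7 and 2 hyper-DMRs, so these intervals include equal densities. The levels at the edges were higher at both times. In TEs of 4 kb or more the median was 33.1% at 24h and 19.0% at time point 0 at the edges, and 26.0% at 24h and 13.7% at time point 0 in the bodies. The median gains were 12.7 points at the edges and 11.7 points in the bodies. For hypo-DMRs in TEs of at least 1 kb the ratio was 1.26 (95% CI 0.806 to 1.91).

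Along the chromosomes the hyper-DMRs were clustered. The 6261 distinct regions had a median gap of 5200 bp to the next, while even spacing would give 19030 bp. A neighbour within 500 bp was found for 1591 of them (25.4%), in 709 clusters of up to 7 regions. Of 1193 bins of 100 kb, 200 held no hyper-DMR and the densest 10% held 37.2% of all. Of the 328 distinct hypo-DMR regions, 8 (2.44%) had such a neighbour of their own kind, in a list whose even spacing would be 363251 bp. Their median gap was 168250 bp, so the neighbour shares of both lists cannot be set against each other without their lengths.

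The densest bins lay in the pericentromeres and were unlike each other. On chromosome 1 from 14900001 to 15000000, 61 hyper-DMRs were listed, of which 2 had their midpoint in a TE, in a bin with 18.0% of TE bases. The bin of chromosome 3 from 13700001 to 13800000 held 57, of which 5 lay in TEs. By contrast, in the bin of chromosome 1 from 15100001 to 15200000, 32 of 36 hyper-DMRs lay in ATREP18 helitrons, and TEs made up 90.1% of its bases. The first bin had a median level of 21.3% at 24h and 8.50% at time point 0, and the ATREP18 bin had 28.6% at 24h and 14.5% at time point 0. The largest clusters held 7 hyper-DMRs each. One spanned 4250 bp on chromosome 1 (14734400 to 14738650), outside TEs, with levels of 20.8 to 26.0% at 24h and 8.58 to 14.9% at time point 0. The other spanned 2900 bp on chromosome 4 (1595600 to 1598500) and reached over AT4TE08120 (ATDNAI27T9C) and AT4TE08130 (AT9TSD1).

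**Figure D5:**
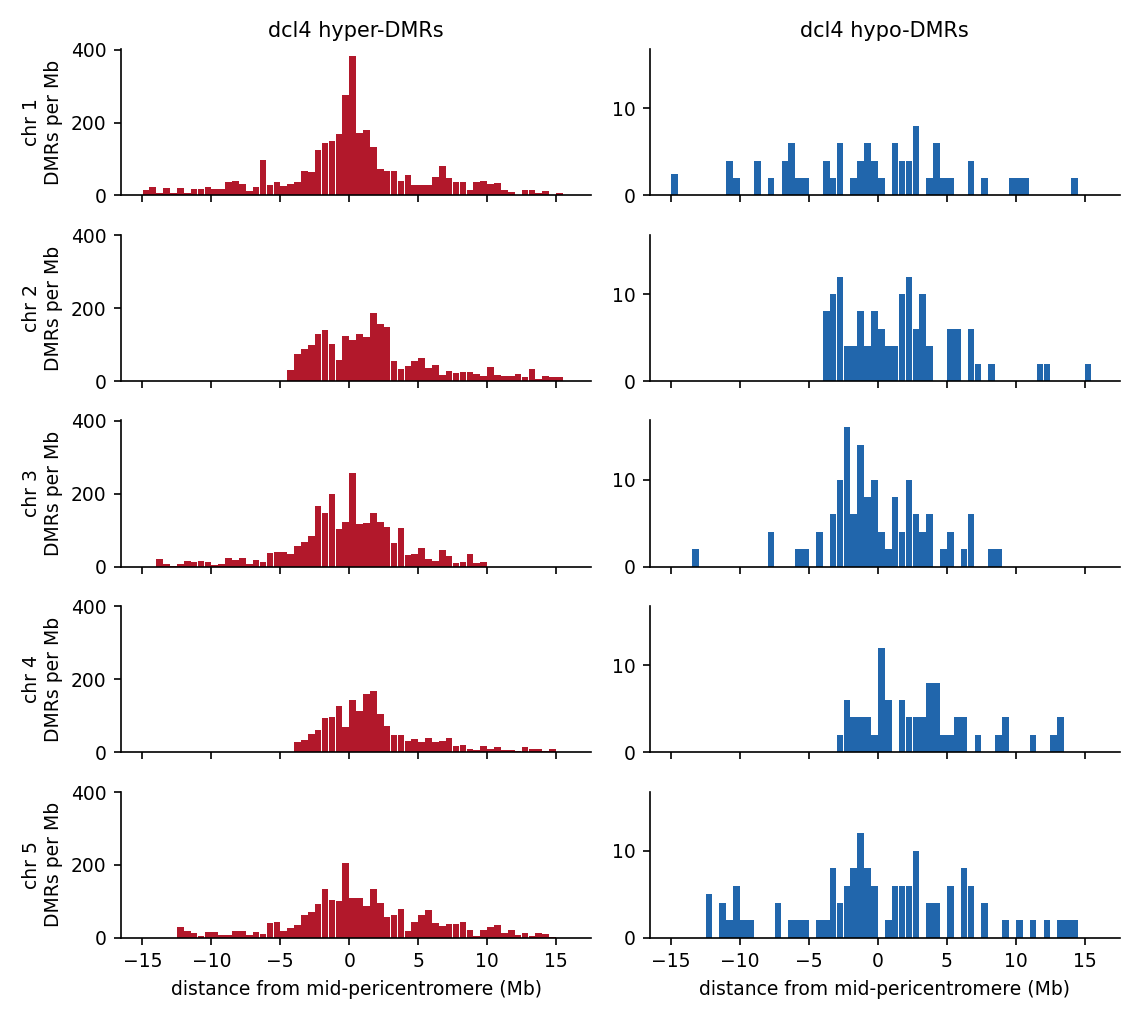
Number of *dcl4* hyper-DMRs (left) and hypo-DMRs (right) per Mb in bins of 0.5 Mb along the 5 chromosomes, against the distance from the middle of each pericentromere (Mb), with a separate scale for each direction. Hyper-DMRs reach 382 per Mb next to the middle of chromosome 1, while hypo-DMRs reach at most 16 per Mb.

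Single TEs held up to 9 hyper-DMRs. AT2TE24335 (ARNOLD2), AT3TE62450 (VANDAL22) and AT3TE70590 (ARNOLD3), all MuDR-type elements of 14001 to 15539 bp, held 9 each. They covered 18.0%, 20% and 15.1% of these elements. The Gypsy element AT1TE51040 (ATHILA6A, 31019 bp) held 8, with levels of 19.99 to 30.8% at 24h and 9.92 to 19.3% at time point 0. AT1TE27295 (VANDAL6) held 7. Of the hyper-DMRs of each of these TEs, 2 at most lay within the outer 250 bp.

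The longest hyper-DMRs of the list were not in TEs but in the 2 nitrate reductase genes of Arabidopsis, *NIA1* and *NIA2*, whose enzymes reduce nitrate to nitrite. In *NIA1* (AT1G77760) a region of 1700 bp (chr1:29235750-29237450), of which 1326 bp are coding sequence, had 32.0% CHH methylation at 24h and 9.12% at time point 0. The same region had 29.95% CHG methylation at 24h and 9.82% at time point 0. A second CHH hyper-DMR of 1050 bp in the gene had 26.3% at 24h and 5.91% at time point 0. In *NIA2* (AT1G37130) a region of 1550 bp (chr1:14160400-14161950), with 1252 bp of coding sequence, had 31.4% CHH methylation at 24h and 6.01% at time point 0. Its CHG methylation was 25.3% at 24h and 4.84% at time point 0. A CHH hyper-DMR of 750 bp in this gene had 18.2% at 24h and 5.13% at time point 0. Together hyper-DMRs covered 74.1% of *NIA1* and 67.1% of *NIA2*. No other protein-coding gene had more than 950 bp covered outside TEs, and the lists of *ddb2*, *ago1*, *uvr3 phrI* and WT plants held no DMR in these genes or within 1 kb of them. That ranking by covered bases was chosen after the values were seen. The third longest region (1250 bp) was intergenic, on chromosome 1 from 14675500 to 14676750, with 28.3% at 24h and 11% at time point 0.

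The midpoint of a hyper-DMR fell in 365 of 27206 protein-coding genes (1.34%), TEs inside genes included. Outside TEs the largest gain in a gene was in an intron of *MEE15* (AT2G16970), with 68.5% CHH methylation at 24h and 18.2% at time point 0. In AT1G59171 a non-coding exon had 47.5% at 24h and 3.62% at time point 0. The other 3 of the 5 largest gains were in coding sequence. *HRGP1* (AT3G54590), which encodes a hydroxyproline-rich cell wall glycoprotein, had 46.1% at 24h and 6.25% at time point 0. In the extensin gene *EXT6* (AT2G24980) the level was 43.5% at 24h and 7.68% at time point 0, and in AT2G02490 it was 43.5% at 24h and 8.28% at time point 0. Extensin genes hold near-identical repeats, among which the authors' mapping could split reads, so their levels are uncertain. This family also gave gene losses, which were picked after the values were seen. In *EXT10* (AT5G06640) regions on chromosome 5 had 14.4% at 24h and 33.2% at time point 0, and 14.7% at 24h and 29.0% at time point 0. *HRGP1* held a hypo-DMR as well, with 3.59% at 24h and 19.7% at time point 0.

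Of 43 genes in lists of DNA methylation, small RNA and photodamage repair factors and of silenced loci, 9 had a hyper-DMR inside or within 1 kb and 1 had a hypo-DMR. Over all protein-coding genes the shares with a hyper-DMR and with a hypo-DMR were 8.18% and 0.529%, a background that does not include the non-coding *TAS* genes of the lists. In the DNA methylation list 1 of 12 genes was affected. Next to *MET1*, at 580 bp from the gene and in an ATREP3 helitron (AT5TE71740), CHH methylation was 57.7% at 24h and 25.5% at time point 0 in the region printed above. No DMR was listed at *CMT2*, *CMT3*, *DRM1*, *DRM2* or the demethylase genes *ROS1*, *DME*, *DML2* and *DML3*.

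Among the 20 genes of small RNA pathways, 5 had a hyper-DMR. One of them was *DCL4* itself, where a 300-bp region over the 5′ end of the gene, with 57 bp of non-coding exon, had 44.1% at 24h and 14.8% at time point 0. An overlapping *ddb2* hyper-DMR had 23.8% at 24h and 10.4% at time point 0. Near *RDR2*, the RNA-dependent RNA polymerase of the RNA-directed DNA methylation pathway, the level was 17.6% at 24h and 4.46% at time point 0, in an ATSINE2A element 410 bp from the gene. The other 3 were *TAS* genes, whose transcripts are the source of trans-acting siRNAs. *TAS1A* had 63.6% at 24h and 49.95% at time point 0, over 500 bp. *TAS1B* had 55.9% at 24h and 37.5% at time point 0, also over 500 bp, and *TAS2* had 38.5% at 24h and 23.4% at time point 0, over 700 bp. These regions lay whole within the genes, which were thus methylated at both times. In *dcl4* plants no DMR was listed at *TAS1C*, *TAS3* or *TAS4*. *TAS1A* also held a *ddb2* hyper-DMR with 49.5% at 24h and 38.5% at time point 0, while at *TAS1B* the *ddb2* list held only the flank.

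Of the 8 photodamage repair genes, 2 had a hyper-DMR in their flank. Next to *CUL4*, the scaffold of the ubiquitin ligase of DDB2, the level was 63.0% at 24h and 44.9% at time point 0. At 449 bp from *PHR1*, the gene of the CPD photolyase, it was 61.3% at 24h and 42.3% at time point 0, in an ATMU3N1 element. Both flanks also held a *ddb2* hyper-DMR. At the loci known for silencing by DNA methylation, the flank of *SDC*, an F-box gene, gained with 31.3% at 24h and 16.6% at time point 0. At the start of *FWA*, an imprinted homeobox gene, CHH methylation was lower at the later time, with 5.0% at 24h and 17.2% at time point 0. An overlapping region was listed as a gain in *ddb2* plants, with 18.6% at 24h and 3.18% at time point 0.

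All 8 *ONSEN* copies (ATCOPIA78) of at least 4 kb held hyper-DMRs in *dcl4* plants, against 62.7% of all TEs of this length. There were 26, with a median of 40.7% at 24h and 26.4% at time point 0, and none of the 8 copies held a hypo-DMR. Their largest gain was in AT3TE89830, with 49.7% at 24h and 25.2% at time point 0, centred 240 bp from the end. In the copy AT5TE15240 the regions near the ends had 58.8% and 62.5% at 24h, against 44.5% and 47.6% at time point 0, while the 3 inner regions had 23.4 to 27.9% at 24h and 12.9 to 17.5% at time point 0. Regions close to an end thus had higher levels at both times than inner ones in this copy. How far reads were split among the copies, or between the terminal repeats of a copy, cannot be told from the lists. In *ddb2* plants all 8 copies also held hyper-DMRs. In *uvr3 phrI* plants 7 of the 8 held hypo-DMRs and none a hyper-DMR, and in WT plants 7 held hypo-DMRs and 4 held hyper-DMRs.

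The *dcl4* regions were set beside the DMRs of the other genotypes, counting a region as shared when at least 50% of it was covered. A *ddb2* hyper-DMR covered 2417 of the 6351 *dcl4* hyper-DMRs (38.1%, 95% CI 36.9 to 39.3%), and a *dcl4* hyper-DMR covered 23.1% of the 9752 *ddb2* hyper-DMRs. The shares differed with the size of the other list, and the *ddb2* hyper-DMRs cover 8.51% of the TE bases. The shares were 5.61% for *ago1*, 1.09% for *uvr3 phrI* and 3.43% for WT hyper-DMRs, which cover 1.079%, 0.280% and 0.707% of the TE bases. Some regions moved in the other direction, as 9.62% of the *dcl4* hyper-DMRs were covered by a *uvr3 phrI* hypo-DMR. That list covers 1.70% of the TE bases, and 29.4% of it was shared. Hypo-DMRs of *ago1*, WT and *ddb2* plants covered 4.02%, 2.46% and 0.567% of the *dcl4* hyper-DMRs. These lists cover 1.01%, 0.533% and 0.161% of the TE bases. The shares thus lay above the coverage of TE bases in both directions. Of the *dcl4* hypo-DMRs, 121 (36.8%) were covered by a *ddb2* hyper-DMR and 2 by a *ddb2* hypo-DMR, from lists of 9752 and 355 DMRs that cover 8.51% and 0.161% of the TE bases.

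Helitrons and Gypsy elements stood in another order by density in *ddb2* plants. The density of hyper-DMRs in helitrons was 119 per Mb in *dcl4* and 327 per Mb in *ddb2* plants, and in Gypsy elements it was 175 per Mb in *dcl4* and 145 per Mb in *ddb2* plants. These densities pool the contexts, so a region listed in CHG and CHH counts for each. In Gypsy elements 1125 of 1139 were CHH DMRs in *dcl4* and 760 of 945 in *ddb2* plants. In helitrons these were 919 of 929 and 2416 of 2560. Helitrons held a *dcl4* hyper-DMR in 6.0% of the copies and a *ddb2* hyper-DMR in 14.1%, while Gypsy elements held one in 19.5% of the copies in *dcl4* and in 15.8% in *ddb2* plants. The edge over body ratio in TEs of 4 kb or more was 2.36 in *dcl4*, 2.77 in *ddb2* and 3.21 in WT plants, and the intervals of these ratios overlap. Each genotype has its own libraries without replicates, so none of these differences between genotypes was tested.

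Of the 6351 hyper-DMRs, 17 (0.268%, 95% CI 0.156 to 0.428%) had at least 50% of their length in a photolesion region of *dcl4* plants, mapped by immunoprecipitation of UV-damaged DNA, and 48 (0.756%) touched one. The 1260 photolesion regions cover 0.209% of the genome. The overlapping DMR with the largest change lay in AT4TE19110 (ATDNAI27T9A) on chromosome 4, with 56.2% at 24h and 19.6% at time point 0. Hypo-DMRs overlapped a photolesion region in 4 of 329 cases.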

How the data were processed

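WGBS was made on leaves of 5 genotypes at 24h and at time point 0, with 1 library each. The authors mapped the reads with BSMAP to TAIR10, compared 24h with time point 0 in sliding windows of 200 bp and merged adjacent windows that changed alike. They kept DMRs by a Wilcoxon signed-rank test and a minimum change. This minimum was 40 points in the CG, 20 in the CHG and 10 in the CHH context. The level columns of the deposited lists are scores, fractions of methylated calls between 0 and 1, shown here as percentages. The changes were computed as 24h minus time point 0, and the column of the deposited lists that holds the authors' own methylation change was not used. The deposited photolesion lists give the fold enrichment, a ratio over input computed by the authors with MACS2 2.1 after Bowtie 1.1.2, of which only the coordinates were used here. The submitters' processing notes also name Bowtie 1.2.1.1, SAMtools 1.5 and bedtools 2.27.1 (for small RNA). The 60 value columns of the 6 small RNA tables were left out, since no sample's labels match their names.

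Python 3.11.15, numpy 2.4.6, pandas 2.3.3, scipy 1.17.1 and matplotlib 3.10.9 were used. The length of a DMR is its end minus its start. A DMR was assigned by its midpoint, to TEs first, then to protein-coding genes, then to intergenic regions. The annotation of 31189 TEs and 27206 protein-coding genes was the authors', taken from coordinates in a small RNA table. Gene parts and sequences came from TAIR10.1, which has the chromosome lengths of the lists except for 4 regions that end at most 94 bp past a chromosome end, 1 of them in *dcl4*. Pericentromeres were runs of 100-kb bins with gene coverage under 50% of the chromosome's median. TE families were grouped by the start of their alias. In the *dcl4* hyper-DMR list 4 regions overlapped another of the same context. The assignment and edge counts were tested on simulated DMRs planted in TEs.

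Named loci were the 10 largest gains and 5 largest losses, the 5 longest hyper-DMRs, the 5 largest CHG gains, the 5 TEs with most hyper-DMRs, the 5 largest gains in genes, the densest bins and largest clusters, and DMRs within 1 kb of the listed genes or *ONSEN*. Named families were the 10 with most hyper-DMRs and the 10 with the highest share among those of at least 20 copies. The members, lists and rules were chosen with earlier results of these data known. Alternatives covered the minimum change and length, the contexts, the rule that ties a DMR to a TE, the edge, the bins and gaps, the pericentromere and the overlap rule. Small RNA abundance and chromatin states were not analysed here.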

Additional observations from a re-analysis of the deposited data

Results flagged for a closer look

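Some regions with the same coordinates and context gained methylation in *dcl4* plants and lost it in another genotype. There were 51 such regions with *uvr3 phrI*, where the median level was 35.7% at 24h and 20.5% at time point 0 in *dcl4* plants, and 20.9% at 24h and 38.3% at time point 0 in *uvr3 phrI* plants. In all 51 the level at time point 0 was lower in *dcl4* than in *uvr3 phrI* plants, and in 50 the level at 24h was higher. The regions were chosen by their opposite changes of at least the minimum, which favours both orders. These counts therefore show no separate difference between the genotypes. With *ago1* there were 19 such regions (30.04% at 24h and 12.6% at time point 0 in *dcl4*, and 18.1% at 24h and 31.8% at time point 0 in *ago1* plants). With WT there were 9 (44.8% at 24h and 33.3% at time point 0 in *dcl4*, and 28.6% at 24h and 52.2% at time point 0 in WT plants). Losses in *dcl4* plants that were gains elsewhere were listed at the same coordinates 3 times with *ddb2*, 1 time each with *ago1* and *uvr3 phrI* and 2 times with WT. The opposite directions are those of single libraries and the differences were not tested.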

How the results depend on the processing

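No paired analysis was possible because each genotype and time point has 1 library, and for the same reason no replicate could be left out. Of 88 values recomputed under an alternative, 30 stayed within their interval or within 1.5 times the count and 58 moved beyond it. None was marked as reversed, but most are shares, counts or densities, which have no direction to reverse. The helitron and Gypsy shares of copies changed order at 20 points, but their intervals overlap there. With a CHH change of at least 15 points the lists held 2520 hyper-DMRs and 125 hypo-DMRs, and with at least 20 points 1121 and 41, of which 96.5% were hyper-DMRs. Without DMRs of 1 window 130 hypo-DMRs remained, and hyper-DMRs were 97.0%. When 50% of the DMR had to lie in a TE, 67.0% of the hyper-DMRs did so and 9.97% of the TEs held one; with 1 bp these were 76.1% and 14.4%. TEs under 250 bp depended on this rule, with 1.42% holding a hyper-DMR (137 per Mb) by the 50% rule and 7.31% (706 per Mb) with 1 bp. The share of helitron copies was 4.33% at 15 points and 2.56% at 20 points, and that of Gypsy copies 4.79% and 2.03%. The edge over body ratio was 1.41 in TEs of 1 kb or more and 1.78 in those of 4 kb or more with an edge of 500 bp. With the outer 10% of the length it was 1.52 in TEs of 1 kb or more and 1.68 in those of 4 kb or more. The densest 10% of bins held 41.1% with bins of 50 kb and 33.7% with 500 kb. A neighbour was found for 12.3% of the regions within 200 bp and for 37.9% within 1000 bp. With pericentromeres of 3 Mb on each side, the pericentromeric share was 95.2% in Gypsy elements, 47.6% in helitrons and 76.5% in TEs of 4 kb or more. Counting any shared base, the share of *dcl4* hyper-DMRs also called was 43.3% in *ddb2*, 7.97% in *ago1*, 1.76% in *uvr3 phrI* and 5.01% in WT plants, and with identical coordinates 1.98%, 0.394%, 0.0315% and 0.315%. The photolesion share was 0.756% with 1 bp. Read numbers are not part of the lists, so how precise a level is cannot be given, and regions below the minimum change were not analysed here.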
